A study of Mus musculus with 30 samples.

Results

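The protein-coding mouse genes Mical3, Akip1, Igf2r, Sgip1, Cd69 and Limd2, were followed here through B lymphoma lines made resistant to paclitaxel, a drug that stabilises microtubules. These 6 genes, of 55401 in the count table, were selected on these same counts, which were low or near 0 in libraries labelled DMSO and raised in libraries labelled Pac, so the difference between those groups is a description and carries no test. The questions put to the data were which lines had each gene on, whether the genes went together from line to line, and whether the genes around them on the chromosome or in their pathways moved too.

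All lines derived from 1 murine culture, the Eµ-Myc; p19ARF -/- cell line, in which a transgene drives Myc from an immunoglobulin heavy-chain enhancer and the tumour suppressor p19ARF is lost. Both changes are shared by every line, controls included. There were 17 paclitaxel resistant lines, 12 DMSO control lines and 1 parental line, each with 1 library of 3′-end digital gene expression. Resistant lines came from wells of 10000 cells that were given paclitaxel at a dose aimed at killing 85% of cells over 3 days and then left 4 days without drug, repeated for 12 to 18 weeks, and control wells were given DMSO, the solvent, in its place. Each line is therefore 1 population evolved in 1 well and the parental line is 1 culture, and the time since the last exposure to drug is not given in the sources used here.

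Total counts ran from 1053948 to 6739131 in DMSO control libraries and from 480919 to 6682169 in paclitaxel resistant ones. Levels are given as CPM, the counts of a gene scaled to its library's total, after TMM correction, and 3 counts, taken as the floor of detection, correspond to between 0.445 CPM in the deepest library and 6.24 CPM in the shallowest. Floors in CPM are scaled to the library's total without TMM correction, here and below. B-cell markers summed to between 5063 and 7194 CPM in DMSO control libraries and to between 2756 and 7024 CPM in paclitaxel resistant ones. The medians were 6210 and 4613 CPM, and 10 of 17 resistant libraries were under every control. The parental library, at 4870 CPM, was under every control too. T-cell markers summed to between 1.86 and 13.2 CPM in DMSO control and between 0 and 25.5 CPM in paclitaxel resistant libraries, with 4 of 8 over 3 counts in some library. Natural killer markers (2 of 6) summed to between 0.495 and 19.5 CPM against 0 to 4.93 CPM, and myeloid markers (4 of 6) to between 2.92 and 28.4 CPM against 4.64 to 54.4 CPM, with Itgam reaching 53.9 CPM. The T-cell genes Cd3e and Cd4, the natural killer genes Nkg7 and Gzma and the macrophage gene Adgre1 had 0 counts in every library, while Lck was over 3 counts in 23 of 30 libraries, Cd3d in 22 and Prf1 in 15. Stromal and endothelial markers (2 of 5) summed to between 41.9 and 76.1 CPM against 8.95 to 82.2 CPM, and Pecam1 was over 3 counts in all 30 libraries. The part of these markers in the results was not tested. Several libraries stood apart from others of their group. The library labelled DMSO 12 lay among paclitaxel resistant libraries on the second principal component of all genes, at 21.4 where the other 11 DMSO control libraries lay between -32.3 and -12.6, and its nearest library was Pac H4. The library labelled Pac H9 was the lowest of its group on that axis, at 3.07, closely followed by Pac D7 at 3.55, and its nearest library was DMSO 2, although Pac A6, Pac C1, Pac D7 and Pac E1 also had a DMSO control library nearest. Its Abcb1b level, at 25.1 CPM, was the lowest of the group and below the control median, where the next lowest resistant line had 40.5 CPM. On the first component DMSO 11 lay at 57.6, where the other control libraries reached at most 1.41, and Pac C1, the shallowest library, lay lowest at -65.4 and highest on the second, at 72.5. The parental library lay with the controls on the second, at -28.8. Whether labels were exchanged or displaced was not tested. Were each label from DMSO 12 to Parental displaced by 1 library, the name of every resistant line and the parental label would move too, so values given line by line rest on the names as deposited. Lines are named as labelled, and the ratios and calls below are given with all libraries, and also without DMSO 12 and Pac H9 where named.

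Mical3 is a member of the MICAL family, flavin monooxygenases that oxidise actin and act with Rab GTPases in vesicle transport. Akip1 encodes a protein that binds protein kinase A and also takes part in NF-κB signalling. Igf2r encodes the cation-independent mannose 6-phosphate receptor, which sorts lysosomal enzymes out of the Golgi and clears IGF2 from the cell surface, and in the mouse embryo it is imprinted, with silencing by the antisense RNA Airn. Sgip1 encodes an endophilin-interacting adaptor of clathrin-coated pits that is best known from brain. Cd69 is an early activation receptor of lymphocytes, which holds the sphingosine 1-phosphate receptor S1PR1 inside the cell, and Limd2 encodes a small protein with a LIM domain, known as an activator of integrin-linked kinase in metastatic cells.

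The genes lie on 5 chromosomes (GRCm38, gencode M21). Sgip1 (ENSMUSG00000028524.21) is at chr4:102741297-102973628 on the plus strand, Mical3 (ENSMUSG00000051586.17) at chr6:120931707-121130999 on the minus strand and Cd69 (ENSMUSG00000030156.5) at chr6:129267325-129275436 on the minus strand. Akip1 (ENSMUSG00000031023.5) is at chr7:109703690-109712189 on the plus strand, Limd2 (ENSMUSG00000040699.13) at chr11:106156256-106160860 on the minus strand and Igf2r (ENSMUSG00000023830.14) at chr17:12682406-12769664 on the minus strand. Mical3 and Cd69 share a chromosome but no neighbourhood.

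The 250 bases before the RefSeq start (GRCm38.p6), matched for 5 of the 6 genes, are shown for the 3 genes with the lowest mean level over the 12 control libraries. Mical3 had 2 such windows and Limd2 had 3, and the one nearest the annotated start of Mical3 is printed. Capitals mark the E-box CACGTG, the sequence that Myc binds with Max, and the GC box GGGCGG, which is CCGCCC when read on the other strand. The window of Mical3 is chr6:121131023-121131272 on the minus strand, in no annotated gene, and that of Igf2r is chr17:12769707-12769956 on the minus strand, which lies in an intron of Airn. For Akip1 the 69 bases that lie in no annotated exon are shown, chr7:109703609-109703677 on the plus strand.
Mical3: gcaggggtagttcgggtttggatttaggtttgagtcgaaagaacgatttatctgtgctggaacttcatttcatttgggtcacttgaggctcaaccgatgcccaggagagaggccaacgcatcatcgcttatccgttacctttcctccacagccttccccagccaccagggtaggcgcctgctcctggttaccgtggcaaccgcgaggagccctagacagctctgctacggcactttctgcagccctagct
Akip1: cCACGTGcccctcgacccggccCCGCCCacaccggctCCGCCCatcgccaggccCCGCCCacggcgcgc
Igf2r: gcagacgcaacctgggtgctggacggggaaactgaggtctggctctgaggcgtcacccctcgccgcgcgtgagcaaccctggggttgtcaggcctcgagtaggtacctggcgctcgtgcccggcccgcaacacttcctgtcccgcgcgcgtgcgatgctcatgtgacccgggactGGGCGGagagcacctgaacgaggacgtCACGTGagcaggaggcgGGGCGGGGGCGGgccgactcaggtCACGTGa
Akip1 held 1 E-box and 3 GC boxes and Igf2r held 2 E-boxes and 3 GC boxes, while the printed window of Mical3 held neither sequence. The second window of Mical3 and the window of Sgip1 held 1 GC box each and 2 of the 3 windows of Limd2 held at least 1. These windows lie inside the gene. Their RefSeq starts are 49372 bases (Mical3), 18838 bases (Sgip1) and 684 and 933 bases (Limd2) from the annotated start. Each of the 5 genes thus had a GC box in some window, and an E-box was found only for Akip1 and Igf2r. The shares that follow are per window, not per gene. Among all 32851 promoter windows of that length, 6.02% held an E-box and 32.7% a GC box, on either strand. The cAMP response element TGACGTCA (1.55% of windows), the TATA box TATAAA (12.4%) and the interferon response element (2.98%) were in none of the windows of the 5 genes. A CCAAT box was in 33.8% of all windows and in 1 of the 3 windows of Limd2. The ratio of observed to expected CpG was 1.05 in the whole window of Akip1 and 0.913 in that of Igf2r, against a median of 0.374 over all windows, and 0.631 for Mical3.

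Mical3 was all but absent from the controls. It had 0 counts in 9 of 12 DMSO control libraries and 1 count in each of the others, and the highest control level was 0.200 CPM. In the paclitaxel resistant libraries its lowest level was 0, its median 2.91 and its highest 9.90 CPM, in Pac A6. The next highest lines were Pac H8 at 8.20 CPM and Pac F10 at 7.18 CPM. Summed counts were 207 against 3, a ratio of 61.7 once the totals are taken into account (95% exact interval 20.8 to 301.7). This interval and those below pool the counts of all lines, so they cover counting error only and not the spread between lines. They are no test, since the genes were chosen on this contrast. A gene is called on here in a library that held over 3 counts of it and exceeded every DMSO control library. By that measure Mical3 was on in 13 of 17 lines. The other 4 were Pac H1 and Pac D10 with 0 counts and Pac C1 and Pac H9 with 1 count each, and in Pac C1 the floor of 6.24 CPM is above the level of most lines in which it was on, so an equal level there was not detectable at this depth.

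Akip1 was at high levels in some resistant lines and at 0 counts in others. Its counts were 0 in 11 of 12 DMSO control libraries and 2 in DMSO 4. Across paclitaxel resistant libraries it ran from 0 to 28.7 CPM, with a median of 8.54 CPM, and it was highest in Pac H8, Pac E2 (24.6 CPM) and Pac D7. The summed counts, 490 against 2, gave a ratio of 219.1 (95% exact interval 60.3 to 1814), and the ratio of the group means of CPM, which weights libraries equally, was 348.5. Akip1 was on in 11 of 17 lines, at a median of 13.9 CPM in those lines. It had 0 counts in Pac B2, Pac D4, Pac D10, Pac H4 and Pac H9 and 2 counts in Pac H3. The libraries of Pac B2, Pac D4 and Pac H4 are deep, and their 0 counts allow at most 0.732 CPM in Pac B2, 0.716 CPM in Pac D4 and 0.449 CPM in Pac H4 of the library's total, far under the 13.9 CPM typical of the lines that had it on. In these same lines Mical3, Igf2r and Cd69 were all on.

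Igf2r was at most 4 counts in any DMSO control library, with a highest control level of 0.622 CPM in DMSO 3. Its lowest level in paclitaxel resistant libraries was 0, its median 4.61 and its highest 24.8 CPM, in Pac F10, followed by 19.2 CPM in Pac D7 and 18.6 CPM in Pac C11. The 3 highest lines together made up 51.7% of the CPM summed over all 17 lines. Summed counts were 516 against 11, a ratio of 42.0 (95% exact interval 23.3 to 84.6). It was on in 14 of 17 lines and was the only 1 of the 6 that was on in Pac H9, with 4 counts. Pac G9 had 1 count among 5315840, a depth at which 3 counts are 0.564 CPM, and Pac C1 and Pac D10, which had 0 and 1 count, are shallow libraries.

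Sgip1 was at 0 counts in 10 of 12 DMSO control libraries. The other control libraries were DMSO 5, with 6 counts, and DMSO 12, with 8 counts and 3.96 CPM. In paclitaxel resistant libraries the lowest level was 0, the median 9.53 and the highest 27.7 CPM, in Pac D7. The ratio of summed counts, 525 against 14, was 33.5 (95% exact interval 19.8 to 61.8), and without DMSO 12 and Pac H9 it was 76.2. The ratio of the group means of CPM was 19.3, and 60.8 without those 2 libraries. Sgip1 was on in 12 of 17 lines. Measured against DMSO 1 to DMSO 11 only, it was on in 15 of 17, since Pac A6, Pac B2 and Pac D4, at 1.91 to 2.40 CPM, then counted as on. No other gene changed its number of lines when DMSO 12 was set aside as a control.

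Cd69 and Limd2 were raised from a measurable level rather than from near 0. Cd69 ran from 0.388 CPM to 16.1 CPM, with a median of 3.26 CPM, in DMSO control libraries. In paclitaxel resistant libraries the lowest level was 10.8, the median 50.0 and the highest 180.3 CPM. The highest lines were Pac D7 (180.3 CPM), Pac C1 (173.2 CPM), Pac G9 (169.9 CPM) and Pac D4 (164.5 CPM). The groups overlapped only through Pac E2, Pac E1 and Pac H9, at 10.8, 11.5 and 12.99 CPM, which were under the control maximum in DMSO 8, and Cd69 was on in the other 14 lines. The ratio of summed counts was 15.5 (95% exact interval 13.7 to 17.7).

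Limd2 ran from 7.99 to 34.5 CPM in DMSO control libraries, with a median of 15.8 CPM and the highest level in DMSO 11. In paclitaxel resistant libraries it ran from 14.7 to 357.3 CPM, with a median of 69.2 CPM. Pac D7 was the highest and Pac C3, at 184.0 CPM, the next. It was on in 15 of 17 lines, the most of any of the genes, and only Pac B2 and Pac H9 did not exceed DMSO 11. The control levels next to DMSO 11 were 30.7 CPM in DMSO 12 and 17.8 CPM in DMSO 5. With DMSO 11 set aside as a control Limd2 was on in 16 lines, Pac B2 included, and the other 5 genes kept their numbers. Pac C1 exceeded DMSO 11 only narrowly, at 35.0 CPM. The ratio of summed counts was 6.34 (95% exact interval 5.89 to 6.83), the smallest of the 6. Without DMSO 12 and Pac H9 the ratio of summed counts was 6.699 for Limd2, 17.0 for Cd69, 40.7 for Igf2r, 60.1 for Mical3 and 214.3 for Akip1.

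**Figure D1:**
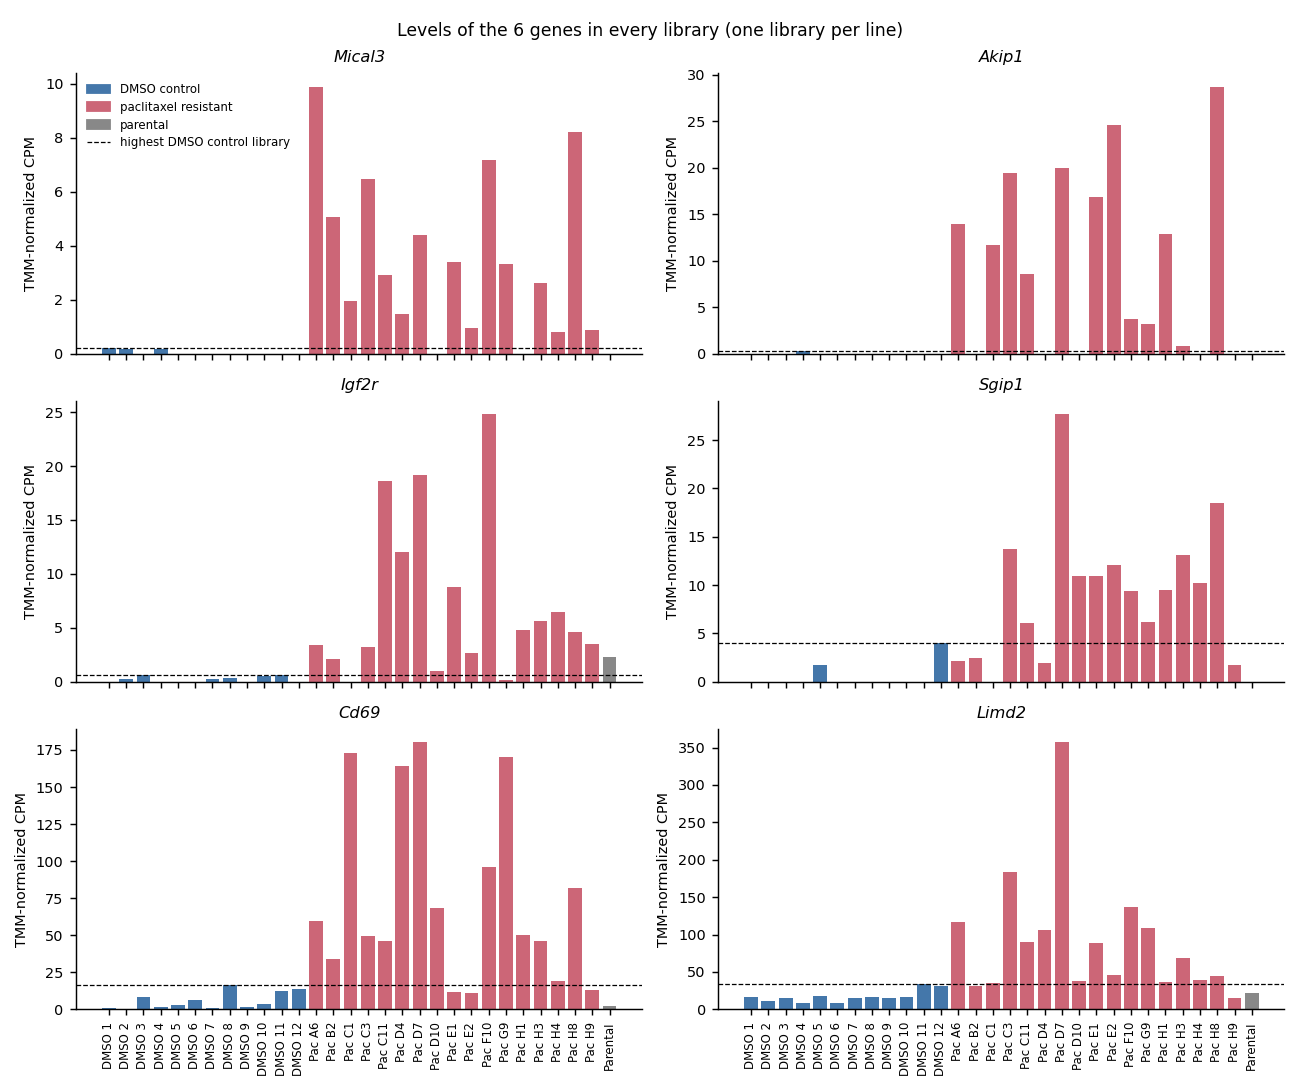
Level of each of the 6 genes in every library, in TMM-normalized CPM on a linear axis that differs between panels, with 1 bar per library and the dashed line at the highest DMSO control library. Akip1 has 0 counts in Pac B2, Pac D4 and Pac H4, where Mical3, Igf2r and Cd69 are on, and DMSO 12 sets the line for Sgip1 at 3.96 CPM.

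In the parental library Mical3, Akip1 and Sgip1 had 0 counts. Cd69 was at 2.28 CPM and Limd2 at 21.6 CPM, both within the range of the DMSO control libraries. Igf2r had 4 counts, or 2.28 CPM, above every DMSO control library. The parental line was 1 library and entered no comparison.

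The resistant lines differed in which genes they had on. All 6 genes were on in 5 lines, Pac C3, Pac C11, Pac D7, Pac F10 and Pac H8, and 5 genes were on in 7 lines. Pac D4 had 4 genes on, Pac B2, Pac C1 and Pac D10 had 3, and Pac H9 had 1. The lines with 5 genes on differed in the remaining one. It was Igf2r in Pac G9, Mical3 in Pac H1 and Akip1 in Pac H3 and Pac H4, each at 2 counts or fewer. In the other 3 lines the gene was over 3 counts but not over the control maximum. Sgip1 had 7 counts in Pac A6, over DMSO 1 to DMSO 11 but under DMSO 12, and Cd69 had 47 counts in Pac E1 and 45 in Pac E2, at 11.5 and 10.8 CPM above the control median of 3.26 CPM. In all, 79 of the pairings of a gene with a line were on, and 81 without DMSO 12 and Pac H9. At an equal depth of 480919 counts per library, where 3 counts are 6.24 CPM, 50 were on. Mical3 was then on in 5 lines, Akip1 and Sgip1 in 7, Igf2r in 8, Limd2 in 10 and Cd69 in 13. With a threshold of 5 CPM in place of the control maximum, Mical3 was on in 5 lines and Igf2r in 7. Among all 17895 genes with over 3 counts in any library, 1.56% were on in at least 9 of 17 lines, which all 6 genes were by their choice. Of those 280 genes, 12 had 3 counts or fewer in every DMSO control library. Mical3 and Akip1 were among the 12, and the others on in 11 or more lines were Abcb4, a phospholipid transporter next to the multidrug transporter genes (12 lines), and C4bp, Hopx and Rhox5 (11 lines each).

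**Figure D2:**
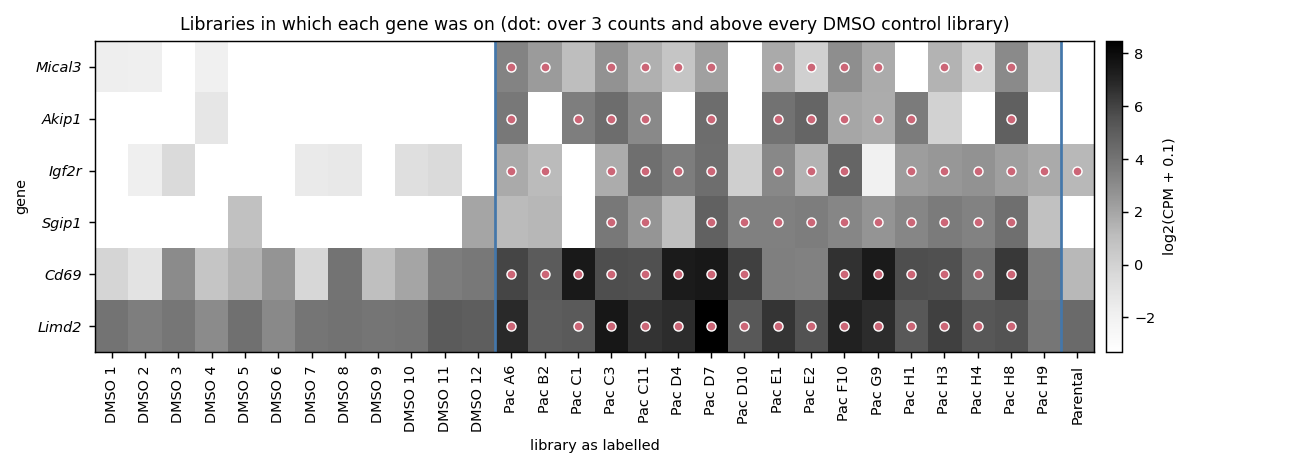
Grey shade gives the log2 level of each gene (rows) in each library (columns), and a dot marks a library in which the gene was on, with blue lines between the DMSO control, paclitaxel resistant and parental libraries. The 5 columns with 6 dots are Pac C3, Pac C11, Pac D7, Pac F10 and Pac H8, and Pac H9 has 1 dot.

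The number of genes on in a line was compared with the depth of its library, because a low gene is missed more easily in a shallow one. Across the 17 paclitaxel resistant lines, Pearson's r with log10 total counts was 0.47 (permutation p = 0.0584) and Spearman's rho was 0.29 (permutation p = 0.262), both two-sided. Without Pac C1 and Pac D10, the lines farthest from the median depth, r was 0.26, and without Pac H9 rho was 0.15 (permutation p = 0.583). Neither relation passed 0.05. For single genes, the rho of level with depth ran from -0.25 for Cd69 to 0.38 for Igf2r, and the smallest adjusted p over the 6 was 0.525 by permutation. Pearson's r was highest for Igf2r, at 0.51 (permutation p = 0.0345, adjusted p = 0.207).

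Whether the genes went together was tested over the 17 lines, which the choice of the genes had not used for that purpose. For each of the 15 pairs of genes the log2 levels were compared across the paclitaxel resistant libraries. Rank correlation was positive in 14 of 15 pairs, with a median rho of 0.24, but 0 pairs passed an adjusted p of 0.05 by permutation, and 2 had an unadjusted p under 0.05. These were Mical3 with Limd2 (rho = 0.57, permutation p = 0.0202, adjusted p = 0.168; r = 0.55, permutation p = 0.0228, adjusted p = 0.257) and Akip1 with Sgip1 (rho = 0.56, permutation p = 0.0224, adjusted p = 0.168; r = 0.28, permutation p = 0.274, adjusted p = 0.515). Without the 2 lines farthest from the median of the first gene, r was 0.52 for Mical3 with Limd2 and 0.13 for Akip1 with Sgip1. At equal depth, rho was -0.01 for Mical3 with Limd2 and 0.06 for Akip1 with Sgip1 (permutation p = 0.981 and 0.821, adjusted p = 0.981 and 0.923), but Mical3 was then on in only 5 lines and Akip1 and Sgip1 in 7 each, which limits what these values can show. The highest rho at equal depth was that of Cd69 with Limd2, at 0.59 (permutation p = 0.0158, adjusted p = 0.237). At the other end, Cd69 and Igf2r had a rho of 0.00 (permutation p = 0.996, adjusted p = 0.996) and Cd69 and Sgip1 one of -0.08 (permutation p = 0.757, adjusted p = 0.854). Without Pac H9, 0 pairs passed.

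The resistant libraries fell into 2 clusters on the first principal component of all genes, with a gap between -5.57 and 42.2. The 6 with values over the gap were Pac F10, Pac C11, Pac D4, Pac A6, Pac G9 and Pac D7, and 11 were under it. Within the 11, 1 of 15 pairs passed: Sgip1 with Limd2 had a rho of 0.85 (permutation p = 0.00177, adjusted p = 0.0265) and an r of 0.52 (permutation p = 0.122, adjusted p = 0.434). Over all 17 lines the same pair had a rho of 0.37 (permutation p = 0.150, adjusted p = 0.322). Without Pac H9, rho over the remaining 10 lines was 0.82 (permutation p = 0.00562, adjusted p = 0.0843), and without Pac C1 it was 0.83 (permutation p = 0.00486, adjusted p = 0.0729), so that the call needed both of those libraries. Within the 6 lines above the gap, 0 pairs passed an adjusted p of 0.05 in exact permutation tests and none had an unadjusted p under 0.05, and Sgip1 with Limd2 had a rho of 0.71.

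**Figure D3:**
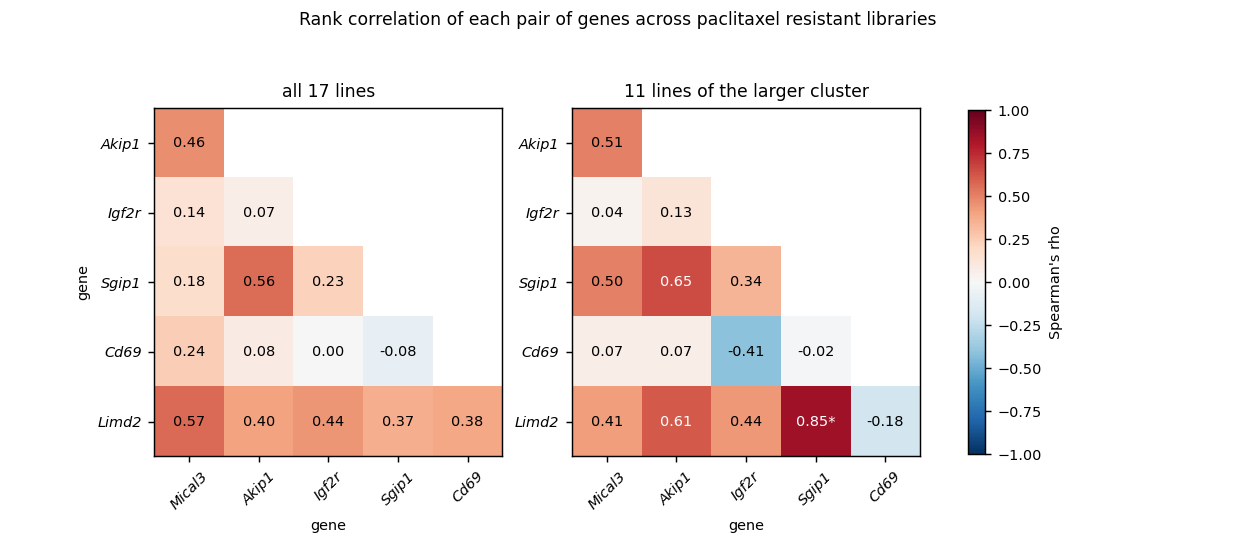
Spearman's rho of each pair of genes across all 17 paclitaxel resistant libraries (left) and across the 11 below the gap on the first principal component (right), with an asterisk at an adjusted permutation p under 0.05. Only Sgip1 with Limd2 in the right panel, at 0.85, carries an asterisk.

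Abcb1b, a multidrug transporter that pumps paclitaxel out of cells, was set beside the 6 genes line by line. The degree of resistance of each line was not used here, so its relation to Abcb1b or to the 6 genes was not tested. It ran from 16.2 to 68.8 CPM in DMSO control libraries, with a median of 32.8 CPM, and from 25.1 to 256.2 CPM in paclitaxel resistant libraries, with a median of 80.5 CPM. The highest control was DMSO 12, the lowest resistant line Pac H9 and the highest Pac G9. In the edgeR quasi-likelihood fit across all genes Abcb1b was higher in paclitaxel resistant lines by 1.45 on the log2 scale (adjusted p = 0.000349), and by 1.64 without DMSO 12 and Pac H9 (adjusted p = 1.31e-05). The call was lost at equal depth, where the log2 fold change was 1.36 (adjusted p = 0.123). For none of the 6 genes was a relation with Abcb1b detected. Spearman's rho ran from -0.21 for Cd69 to 0.09 for Limd2 and r from -0.06 for Igf2r to 0.35 for Sgip1, and the smallest adjusted p over the 6 was 0.975 for rho and 0.860 for r, by permutation.

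As a description, the 3 tested genes with the highest Pearson's r across the 17 lines were listed for each of the 6, over log2 levels that share libraries and depth. They were picked as the highest of all genes tested over few libraries, so a high r comes with the choice. No chance level was worked out, and a link with any of them was not tested. For Limd2 these were Dync1li1, a light intermediate chain of dynein (r = 0.88), the receptor phosphatase gene Ptprs (0.88) and Fbxo33 (0.88). For Sgip1 they were the ribosomal protein pseudogene Rpl35a-ps4 (r = 0.90), Fzr1, an activator of the anaphase-promoting complex (0.88), and Pgls (0.86). Igf2r was most like the kinase gene Mast4 (r = 0.81), the mitochondrial fission factor gene Mff (0.78) and Snhg20 (0.78), and Mical3 most like Cd93 (0.80), the lysosomal mannosidase gene Manba (0.75) and Itfg1 (0.74). Cd69 was most like Arid5a (r = 0.77), 4932438A13Rik (0.77) and Sun2, a protein of the nuclear envelope (0.76), and Akip1 most like Zfp874b (0.74), Tmem35b (0.73) and Suox, sulfite oxidase (0.70). None of these 18 genes was called between the groups by edgeR (quasi-likelihood, adjusted p threshold 0.01), and no gene was listed for more than 1 of the 6.

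The fit across all genes called 94 of 9445 tested genes higher in paclitaxel resistant lines (0.995%) and 208 in either direction (2.2%) at an adjusted p of 0.01. Of the 6 genes, Igf2r, Sgip1, Cd69 and Limd2 passed the filter on low counts and entered that fit, and Mical3 and Akip1 did not. Genes around the 6 were then asked for the same difference. Within 250 kb there were 124 annotated genes, of which 32 were tested. In edgeR's quasi-likelihood test 0 of the 32 were called at an adjusted p of 0.01, and 5 (15.6%) had an unadjusted p under 0.05, against 25.1% of all genes tested. These were Tmem9b beside Akip1, Sod2 beside Igf2r, and Tanc2, Tcam1 and Cd79b beside Limd2. The median log2 fold change of all 32 was 0.05, against 0.07 over all genes tested. The tested neighbours closest to Limd2, Map3k3 at 810 bases and Strada at 2470 bases, had log2 fold changes of 0.61 ± 0.45 and -0.10 ± 0.16 (SE), while Gm10840, which overlaps Limd2 on the other strand, had 0 counts in every library. Beside Mical3, the apoptosis genes Bid and Bcl2l13 had log2 fold changes of 0.00 ± 0.15 and 0.13 ± 0.24 (SE). Cd79b, a subunit of the B-cell receptor 150481 bases from Limd2, was at 1797 CPM in DMSO control and 1138 CPM in paclitaxel resistant libraries on average (log2 fold change -0.64 ± 0.16, SE; adjusted p = 0.0132). It passed without DMSO 12 and Pac H9 (adjusted p = 0.00837), without DMSO 11 and Pac C3 (adjusted p = 0.00965), in the likelihood ratio test (adjusted p = 0.00427) and in DESeq2 (adjusted p = 0.00358). It did not pass with RLE factors (adjusted p = 0.0130), with log10 total counts as a covariate (adjusted p = 0.0120), without the filter (adjusted p = 0.0179) or at equal depth (adjusted p = 0.123). Cd79b is also 1 of the 10 B-cell markers, whose sum was under every control in 10 of 17 resistant libraries and in the parental library. The part of one in the other was not tested.

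Airn, transcribed on the other strand through the start of Igf2r, was not called. Its level was 8.71 ± 5.46 CPM (SD, n = 12) in DMSO control and 8.52 ± 5.71 CPM (SD, n = 17) in paclitaxel resistant libraries, a log2 fold change of -0.02 ± 0.37 (SE; adjusted p = 0.980, edgeR). Airn was present in all DMSO control libraries at over 3 counts, where Igf2r was at 4 counts or fewer. The strand setting of the count table is not given in the sources used here, so reads of the 2 genes where they overlap cannot be told apart.

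**Figure D4:**
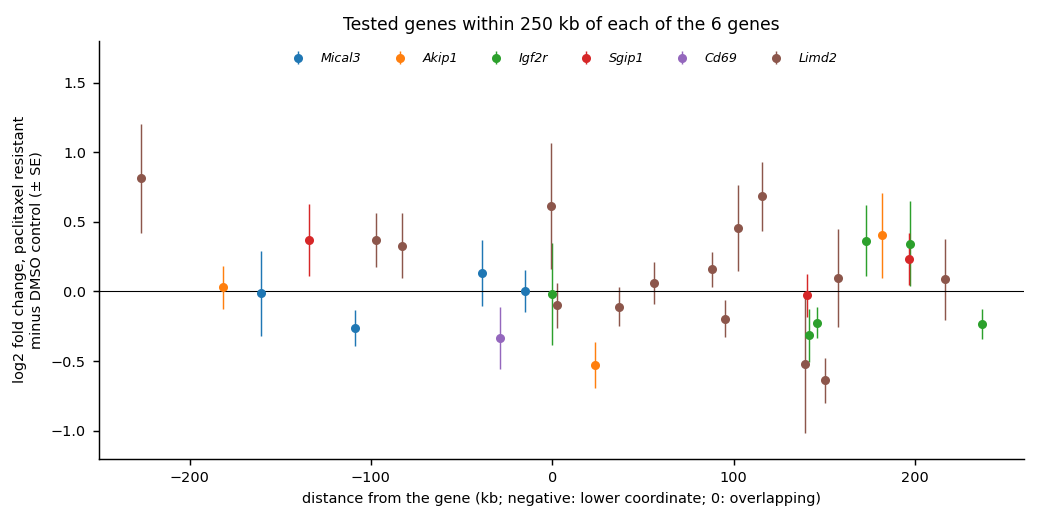
Log2 fold change, paclitaxel resistant minus DMSO control, with its SE, of the 32 tested genes within 250 kb of the 6 genes, against distance from the gene in kb. The values scatter around 0 at all distances, and none passed an adjusted p of 0.01.

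Low genes of these neighbourhoods did not pass the filter. Without the filter 2 of 91 neighbours were called (2.2%), against 1.04% of all genes, both higher: Clec12a, an inhibitory C-type lectin receptor gene 67255 bases from Cd69 (adjusted p = 0.00288), and Usp18, an interferon-induced gene 114907 bases from Mical3 (adjusted p = 0.00147). Clec12a had at most 2 counts in any DMSO control library and a highest level of 5.72 CPM in Pac G9, with over 3 counts in 9 of 17 resistant libraries. Usp18 had over 3 counts in 11 of 17 resistant libraries, but its group mean of 21.1 CPM came mostly from Pac H1 at 204.9 CPM and Pac G9 at 130.03 CPM, and the median was 1.92 CPM. Mical3 itself had 0 counts in Pac H1 and 21 counts in Pac G9, where it was on. A further low neighbour of Cd69, 4922502D21Rik, named after its values were seen, had over 3 counts in 12 of 17 resistant libraries and in 1 of 12 controls, DMSO 12, and was not called.

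The pathways of the 6 genes were read from 7 lists. Of 90 tested genes on the lists, 0 rose and 2 fell at an adjusted p of 0.01 in edgeR's quasi-likelihood test, with 26 (28.9%) at an unadjusted p under 0.05 and a median log2 fold change of 0.05. The share called, 2.22%, was near the 2.2% called over all genes tested. Klf2, a transcription factor that keeps lymphocytes quiescent and drives S1PR1, was at 63.3 ± 22.4 CPM (SD, n = 12) in DMSO control and 25.005 ± 18.0 CPM (SD, n = 17) in paclitaxel resistant libraries, and fell by 1.31 on the log2 scale (SE 0.27, adjusted p = 0.00283). Pdlim1, itself a LIM domain gene, was at 273.9 ± 61.0 CPM (SD, n = 12) against 127.4 ± 57.6 CPM (SD, n = 17), and fell by 1.08 (SE 0.20, adjusted p = 0.000732). At equal depth Pdlim1 still passed (adjusted p = 0.00737) and Klf2 did not (adjusted p = 0.424, log2 fold change -1.01). S1pr1, named for its tie to Cd69 after its values were seen, was at 175.5 ± 74.0 CPM (SD, n = 12) against 109.4 ± 46.2 CPM (SD, n = 17) and did not pass (log2 fold change -0.67 ± 0.23, SE; adjusted p = 0.0692).

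By list, the counts were small. Of the 12 tested genes of lymphocyte activation around Cd69, 1 fell, which was Klf2, and the immediate early gene Jun had a log2 fold change of 1.79 ± 0.46 (SE; adjusted p = 0.0156), and passed in the likelihood ratio test (adjusted p = 0.00367), in DESeq2 (adjusted p = 0.00187) and with log10 total counts as a covariate (adjusted p = 0.00790). Jun did not pass without DMSO 12 and Pac H9, without DMSO 11 and Pac C3, with RLE factors or without the filter (adjusted p between 0.0150 and 0.0206), and was not tested at equal depth. Of the 12 tested LIM domain genes 1 fell, Pdlim1. No gene passed among 5 tested of the MICAL family and its partners, 17 of protein kinase A and NF-κB signalling, 23 of mannose 6-phosphate sorting, 20 of clathrin endocytosis and 1 of the C-type lectins. The median log2 fold change was 0.40 in the protein kinase A and NF-κB list and between -0.05 and 0.15 in the other 6, against 0.07 over all genes. Without DMSO 12 and Pac H9 the lists held 4 called genes of 90 (4.44%), against 3.36% of all genes tested in that setting. They were Klf2, Pdlim1, the methionine sulfoxide reductase gene Msrb1, which fell by 0.67 (adjusted p = 0.00577), and Prkar1a, a regulatory subunit of protein kinase A, which rose by 0.65 (adjusted p = 0.00662). In the other 8 fits Msrb1 and Prkar1a did not pass, with adjusted p from 0.0105 to 0.599 for Msrb1 and from 0.0298 to 0.150 for Prkar1a. Snx1, a sorting nexin of the mannose 6-phosphate list, passed in the likelihood ratio test (adjusted p = 0.00690) and in DESeq2 (adjusted p = 0.00256, log2 fold change -0.46), and in none of the other 7 fits (adjusted p from 0.0201 to 0.675).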

How the data were processed

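Total RNA from 17 paclitaxel resistant, 12 DMSO control and 1 parental line was made into barcoded 3′-end libraries in 2 subpools of 15 lines. Which line was in which subpool, the collapse of molecular identifiers and the strand setting are not given in the sources used here. The authors aligned reads to GRCm38 with STAR 2.5.1b (submitters' processing notes) and deposited raw, whole-number counts per gene. Samples were grouped by their labels, and 0 columns of per-sample values were left unused. A symbol was found for 55141 of 55401 identifiers, and positions are those of gencode M21, where the paper names M25.

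Counts of the 29 treated lines were tested with edgeR 4.0.16 in R 4.3.3 (TMM, filterByExpr, quasi-likelihood test, Benjamini-Hochberg adjusted p under 0.01). The parental library stayed outside the fit. Log2 CPM used a prior count of 2. Correlations used 100000 permutations (Python 3.11.15, numpy 2.4.6), or all orders for 6 values, with adjustment over 15 pairs or 6 genes. Named genes were the 6, Abcb1b, called neighbours and listed genes, and the 3 most similar genes of each. Members and lists were chosen with earlier results of these data known. Alternatives were DESeq2 1.42.0, a likelihood ratio test, RLE factors, no filter, thinning to 480919 counts, log10 total counts as a covariate, a prior count of 0.5, plain CPM, a threshold of 5 CPM and libraries left out. In simulated data 193 of 193 genes changed 4-fold were recovered among 9367, with 1 false call. No 2 libraries of a group agreed within sampling noise, the closest pair differing by a chi-square of 6.21 per gene. Lines share 1 parental culture, so p-values measure the spread between evolved lines of it. Intervals and floors cover counting error only.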

Additional observations from a re-analysis of the deposited data

Results flagged for a closer look

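Igf2r in the parental library was at 2.28 CPM (4 counts), above the highest DMSO control library, which was at 0.622 CPM. This library stood outside every comparison. Its floor of 3 counts is 1.62 CPM without TMM correction. The value is 1 count above that floor and has no replicate.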

How the results depend on the processing

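Of the results above, the number of genes called between the groups depended on the settings. It was 208 and became 321 without DMSO 12 and Pac H9, 338 without DMSO 11 and Pac C3, 448 with the likelihood ratio test, 491 with DESeq2 and 11 at equal depth, where 5388 genes were tested. Called neighbours went from 0 to 1 without DMSO 12 and Pac H9, 1 without DMSO 11 and Pac C3, 1 with the likelihood ratio test and 1 with DESeq2, each time Cd79b, and to 2 without the filter. Called genes of the lists went from 2 to 4 without DMSO 12 and Pac H9, 4 with the likelihood ratio test, 4 with DESeq2 and 1 at equal depth. The pairs of genes that went together were 0 over the 17 lines and 1 within the 11 lines below the gap. The rho of genes on with depth turned from 0.29 to -0.0228 at equal depth (permutation p = 0.932). The total of genes on over lines went from 79 to 50 at equal depth. The cause of these changes was not tested. For single genes, the lines with the gene on moved by over 1.5 times for Mical3 (13 to 5) and Igf2r (14 to 7) at a threshold of 5 CPM, and at equal depth for Mical3 (5), Akip1 (7), Igf2r (8) and Sgip1 (7). The other 33 values of the results across genes, pairs and lines stayed on their side of the threshold or, for counts, within 1.5 times. The comparison within the 6 lines above the gap, leaving out DMSO 12 and Pac H9, or DMSO 11 as a control, from the genes on, leaving out Pac H9 or Pac C1 within the 11 lines, Pac C1 from all pairs and Pac G9 from the relation with Abcb1b were added after seeing the data. With 1 library per line, depth limits the lowest genes most: in Pac C1, 3 counts are 6.24 CPM. No paired analysis was possible because the lines of the groups share no replicate numbers.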
